A study of Homo sapiens with 48 samples.

Results

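The genes described here handle iron in HK-2 cells: the receptor, reductase and transporters that bring iron in, the ferritin that stores it, the exporter that releases it and the proteins that sense it. The members were the probe sets whose only gene symbol in the platform annotation was TFRC, FTH1, FTL, SLC11A2, SLC40A1, STEAP3, IREB2, ACO1 or SLC39A14. That rule found 21 probe sets, of 41091 with 1 symbol and 54675 on the array, and they belonged to 7 of the 9 genes. FTH1 and IREB2 had none and were not analysed here. Of the 21 probe sets, 16 exceeded log2 4 in at least 3 arrays, and every one of the 7 genes had at least 1 of these. HK-2, a cell line derived from the proximal tubule of a human kidney and made immortal, was exposed in the study to compounds called CsA, Fk, Ra and Nnm in the labels, which its design groups as toxic to the kidney. The 48 arrays formed 16 groups of 3: CsA and its vehicle controls at 12 h and 48 h, Fk, Ra and their shared vehicle controls at 12 h and 48 h, and a low and a high dose of Nnm with shared vehicle controls at 24 h and 48 h. No dose is stated beyond low or high, and the compounds' full names are not stated either. All groups grew in medium without serum that was supplemented with insulin, hydrocortisone, epidermal growth factor, selenite and human transferrin, so transferrin-bound iron could reach treated and control cells alike. The labels call the 3 arrays of a group biological replicates and do not say which cultures they came from.

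Cells take up most of their iron as transferrin bound to the transferrin receptor, which is carried into endosomes, where STEAP3 reduces the iron and SLC11A2 moves it into the cytosol. SLC39A14 takes up iron that is not bound to transferrin, ferritin stores what is not used, and SLC40A1, or ferroportin, is the only known cellular exporter. Iron regulatory proteins, one of which is ACO1 when it lacks its iron-sulfur cluster, bind hairpins called iron-responsive elements in iron-poor cells, where they block translation of ferritin and ferroportin and protect the transferrin receptor transcript from decay. In the proximal tubule these genes recover filtered iron. The arrays measured RNA, so translation of ferritin and ferroportin was not followed.

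The ferritin light chain transcript carries such an element near its 5′ end, and it is shown because it marks the layer of control that RNA levels do not reveal. It was read from RefSeq (GRCh38.p14) as transcript bases 21 to 50, at chr19:48965329-48965358 on the plus strand, with the 6 bases of the loop in capitals.
FTL iron-responsive element: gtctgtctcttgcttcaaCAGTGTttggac
The consensus loop of the iron-responsive element, searched with its bulged base, was in the first 50 transcript bases at 1.67% of 35116 start sites on the transcript strand (3.29% on either strand), and of the 7 members with an entry in the table it was found in FTL. FTH1 and SLC39A14 had no entry and were not searched.

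The 250 bases before the start site follow for the receptor, the storage gene and the exporter (RefSeq, GRCh38.p14). SLC39A14, which was also called in the results below, had no entry to show. TFRC is at chr3:196082091-196082340 on the minus strand, FTL at chr19:48965059-48965308 on the plus strand and SLC40A1 at chr2:189580787-189581036 on the minus strand. Capitals mark, on either strand, the hypoxia response core ACGTG, the AP-1 or CRE-like TGACGCA, the TATA box TATAAA and the GC box GGGCGG.
TFRC upstream: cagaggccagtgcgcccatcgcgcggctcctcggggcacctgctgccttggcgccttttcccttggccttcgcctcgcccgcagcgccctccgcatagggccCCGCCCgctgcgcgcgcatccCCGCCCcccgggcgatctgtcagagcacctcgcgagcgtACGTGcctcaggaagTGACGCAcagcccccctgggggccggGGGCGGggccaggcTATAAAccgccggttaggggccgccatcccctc
FTL upstream: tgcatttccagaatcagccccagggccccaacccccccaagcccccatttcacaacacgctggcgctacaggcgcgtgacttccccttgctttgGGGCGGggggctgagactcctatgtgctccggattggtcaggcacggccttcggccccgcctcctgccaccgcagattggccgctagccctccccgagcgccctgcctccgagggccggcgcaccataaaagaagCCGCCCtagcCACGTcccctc
SLC40A1 upstream: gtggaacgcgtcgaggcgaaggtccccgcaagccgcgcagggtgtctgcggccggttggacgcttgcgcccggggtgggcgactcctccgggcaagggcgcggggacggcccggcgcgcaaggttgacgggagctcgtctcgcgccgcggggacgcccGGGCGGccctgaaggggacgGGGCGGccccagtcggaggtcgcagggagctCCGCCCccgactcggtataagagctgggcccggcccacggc
The TFRC window holds all 4 of these, the FTL window holds ACGTG and GGGCGG, and the SLC40A1 window holds GGGCGG 3 times. Among all 35116 windows of this length, ACGTG was in 18.5%, TGACGCA in 2.1%, TATAAA in 10.7% and GGGCGG in 42.6%. The antioxidant response core TGACNNNGC, in 10.9% of all windows, was in the window of none of the 7 members searched. The E-box CACGTG, which contains ACGTG and is in 6.3% of all windows, was in none of these 7 either. These are matches of letters and no measure of binding. For these motifs nothing outside the 250 bases was searched, so sites further away are not covered.

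Levels below are log2 values of the deposited table, for 1 probe set a gene, and differences are log2 differences with their SE. Means carry the SD over n = 3 arrays, and adjusted p-values are from limma, over 11356 genes. The median SE of a difference was 0.257, and what limits the precision was not tested. HK-2 cells carried the epithelial markers KRT8, KRT18, KRT19, EPCAM and PAX8 (means 10.9 to 13.0). CDH1, another epithelial marker, averaged 6.84 and ranged from 2.94 to 9.66. The mature tubule markers CUBN, LRP2, AQP1, ANPEP, MME, SLC34A1 and SLC5A2 averaged 2.11 to 2.95, below the filter, and GGT1 passed it with a mean of 3.94. In all, 7 of 15 measured markers of epithelium and proximal tubule passed, and by those that did not the cells are a limited model of the tubule. Of the markers with a probe set, 0 of 6 for leukocytes and 0 of 4 for erythroid cells passed the filter, as did 1 of 5 for endothelium (PECAM1, mean 4.38). For fibroblasts 3 of 6 passed, COL1A1, DCN and LUM, well above the filter (means 8.12, 10.59 and 9.62). PECAM1 was higher with high-dose Nnm at 48 h (0.82, adjusted p = 0.0068). It was also higher with Ra than with Fk at 48 h (0.70, or 1.03 with centred arrays), a call that held in 3 of 6 fits with 1 array left out. COL1A1 was lower with Ra at 48 h (-1.04, adjusted p = 0.0241, or -0.76 with centred arrays, 0.0459). That call also held in 3 of 6 such fits and was lost without Ra 48 h replicate 2 (-0.47, 0.371). The part of these markers in the results below was not tested. In bulk RNA, fewer cells of a type and less RNA per cell cannot be told apart.

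Certain arrays stood apart for these genes. In the CsA set, the 4 arrays numbered 3, treated and control alike, had SLC40A1 between 3.95 and 5.70, while its other 8 arrays lay between 7.51 and 8.34. In 3 of those 4 groups the array numbered 3 also had the highest SLC39A14, and in all 4 the highest TFRC, SLC11A2 and STEAP3. That spread enters the error shared by all groups, so results that change without those 4 arrays are also given without them. Ra 48 h replicate 2 had the lowest upper quartile of all arrays, 6.19 (Fk 12 h replicate 3 followed with 6.83). In the deposited values the median gene was 0.178 lower with Ra at 48 h than in its controls. Centring each array on its median over the filtered probe sets made that median difference 0.107, so values with centred arrays stand beside the results at that time.

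Of the 70 differences between treated and control cells (7 genes in 10 comparisons), 4 passed the test: FTL was higher with Nnm in 3 comparisons, and SLC39A14 was lower with Ra at 48 h. With Nnm, 1 of 7 members was called at the low dose at 24 h (8.29% of all genes, 3.58% higher), 0 at the low dose at 48 h (5.22%, 2.77% higher), 1 at the high dose at 24 h (23.1%, 10.5% higher) and 1 at the high dose at 48 h (16.8%, 8.89% higher). With Ra, 0 of 7 were called at 12 h (0.0704% of all genes, 0.0528% higher) and 1 at 48 h (18.5%, 15.6% lower). With CsA, 0 of 7 were called at 12 h (0% of all genes) and 0 at 48 h (1.02%). With Fk, 0 of 7 were called at 12 h and at 48 h, where 0% of all genes were called either time, and 712 genes at 12 h and 311 at 48 h had an unadjusted p under 0.05. A single call among 7 members says little beside such shares.

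**Figure D1:**
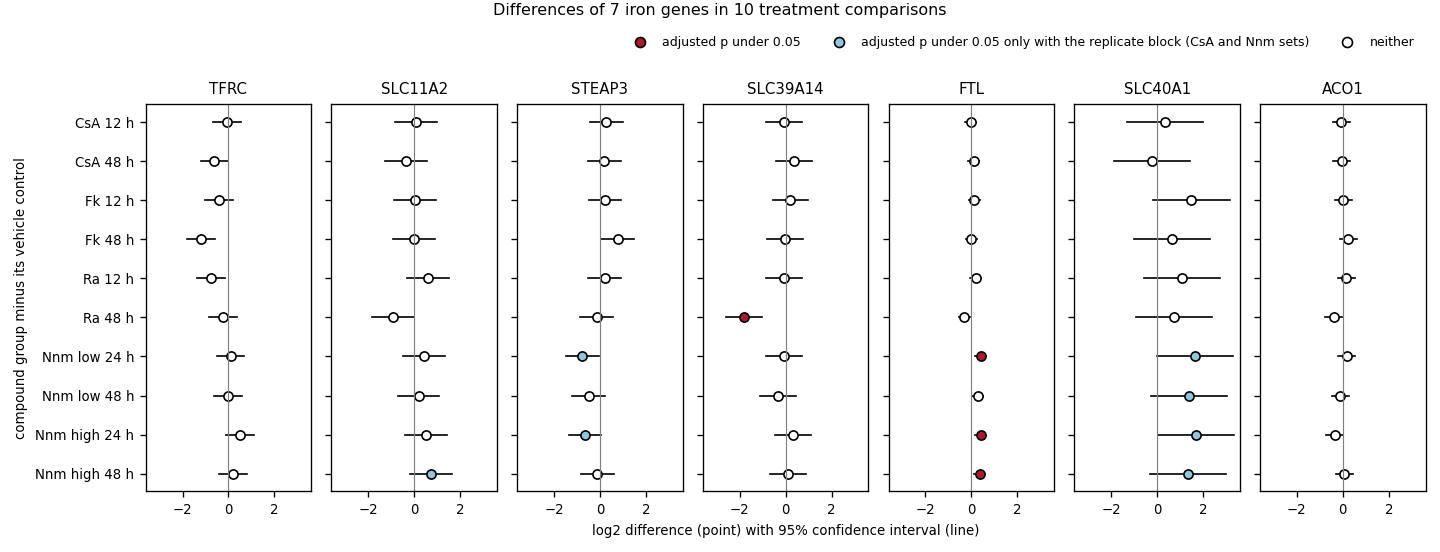
Log2 differences between compound and vehicle groups (points, horizontal axis) with their 95% confidence intervals (lines) for 7 iron genes, 1 panel a gene, in 10 comparisons down the page. Red points passed at an adjusted p under 0.05 (FTL in 3 Nnm comparisons, SLC39A14 with Ra at 48 h), and blue points passed only with the replicate number as a block, which is shown for the CsA and Nnm sets (SLC40A1 in all 4 Nnm comparisons, STEAP3 in 2, SLC11A2 in 1).

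TFRC encodes the transferrin receptor (chr3:196049284-196082090, GRCh38.p14). Its lowest levels were those of cells given Fk for 48 h, 11.18, 11.59 and 11.61 in the 3 arrays, against 12.45, 12.72 and 12.77 in the controls of that time. Every Fk array lay below every control array, which holds for 3.89% of all genes in the lower direction there. The difference was -1.19 ± 0.30, or 0.439 of the control level, and it missed the test over all genes (adjusted p = 0.308), in a comparison where no gene passed.

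The earlier time and the other compounds gave smaller TFRC differences. After 12 h the levels were 12.76, 13.07 and 12.75 with Fk and 12.66, 12.73 and 12.12 with Ra, against 13.31, 13.38 and 13.13 in the shared controls. Neither group overlapped the controls, as for 6.49% of all genes in the lower direction with Fk and 15% with Ra. The differences of -0.41 ± 0.30 for Fk and -0.77 ± 0.30 for Ra were not called (adjusted p = 0.94 and 0.451). After 48 h of Ra the levels were 12.40, 12.19 and 12.64, which overlap the controls, with a difference of -0.24 ± 0.30 (adjusted p = 0.629), and with centred arrays the difference turned to 0.05 (adjusted p = 0.933). CsA for 48 h gave 11.91, 11.96 and 12.57 against 12.69, 12.46 and 13.13 in its controls (-0.61 ± 0.30, adjusted p = 0.405). In the 4 Nnm comparisons TFRC differed by between -0.01 and 0.49, with no call.

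Set directly against each other at 48 h, Ra and Fk left TFRC at different levels. It was higher with Ra by 0.95 ± 0.30 (adjusted p = 0.0243, or 1.28 with centred arrays, adjusted p = 0.00496). No Ra array overlapped a Fk array, as for 4.02% of all genes in the higher direction. The call was lost without Fk 48 h replicate 1 (0.81, adjusted p = 0.148), Ra 48 h replicate 3 (0.83, 0.0778) or Ra 48 h replicate 2 (1.06, 0.0567). Of the gene's other probe sets past the filter, one also passed (1.05, adjusted p = 0.0403), one pointed the same way (1.06, 0.162) and the dimmest did not (-0.11, 0.761). That last TFRC probe set shared the sign of the one used here in 5 of 10 treatment comparisons, against 9 and 8 for the other two. The doses of Ra and Fk are not given, so whether they match is unknown.

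STEAP3, the endosomal ferrireductase (chr2:119223834-119265652), was lower in cells given Nnm for 24 h, though only with the replicate number as a block. Its levels were 7.31, 6.51 and 6.95 at the low dose and 7.15, 6.79 and 7.20 at the high dose, against 7.94, 7.21 and 7.94 in the controls. Each treated array lay below the control of its number, while the ranges overlapped at the low dose. The differences were -0.77 ± 0.35 at the low dose (adjusted p = 0.171, 0.0231 with the block) and -0.65 ± 0.35 at the high dose (0.185, 0.0356 with the block). Without any 1 number, the blocked STEAP3 call was lost at the low dose, with adjusted p between 0.0575 and 0.302, and at the high dose it held without number 2 alone (0.0471). After 48 h the differences were -0.48 at the low dose and -0.11 at the high dose, neither called with or without the block. With Fk for 48 h the levels were 9.41, 8.94 and 8.09 against 8.80, 7.87 and 7.47 in the controls, ranges that overlap (0.77 ± 0.35, adjusted p = 1).

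SLC11A2, the endosomal iron transporter also known as DMT1 (chr12:50952263-51028886), was called against the controls in no comparison of the unblocked fit over all 48 arrays. With the high dose of Nnm for 48 h its levels were 9.11, 8.09 and 9.02, against 7.75, 8.04 and 8.18 in the controls. All 3 treated arrays exceeded the control of their number, number 2 by very little, and the difference of 0.75 ± 0.45 was called with the block only (adjusted p = 0.264, 0.0423 with it). That blocked SLC11A2 call was lost without number 1 (0.44, adjusted p = 0.474) and without number 3 (0.70, 0.257). In the blocked fit of all numbers a second SLC11A2 probe set was also called higher (0.76, adjusted p = 0.0368), another was called lower (-0.61, 0.0145) and the remaining one differed by -0.09 (0.878). The probe set called lower was near the filter, at 3.90 ± 0.67 with the high dose and 4.52 ± 0.09 in the controls. With Ra for 48 h SLC11A2 stood at 7.18, 7.30 and 7.28, against 8.35, 7.90 and 8.31 in the controls. The groups did not overlap, as for 17.2% of all genes in the lower direction, but the difference of -0.93 ± 0.45 missed the test (adjusted p = 0.145). It passed without the 4 CsA-set arrays numbered 3 (adjusted p = 0.0311), and with centred arrays SLC11A2 differed by -0.64 (0.335). With Ra at 48 h the gene's other probe sets past the filter also differed downward (-1.14, -1.45 and, near the filter, -0.22). Over all 10 treatment comparisons the probe sets of SLC11A2 disagreed: one shared the sign in 8 of 10, the remaining ones in 3 and 2 of 10.

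**Figure D2:**
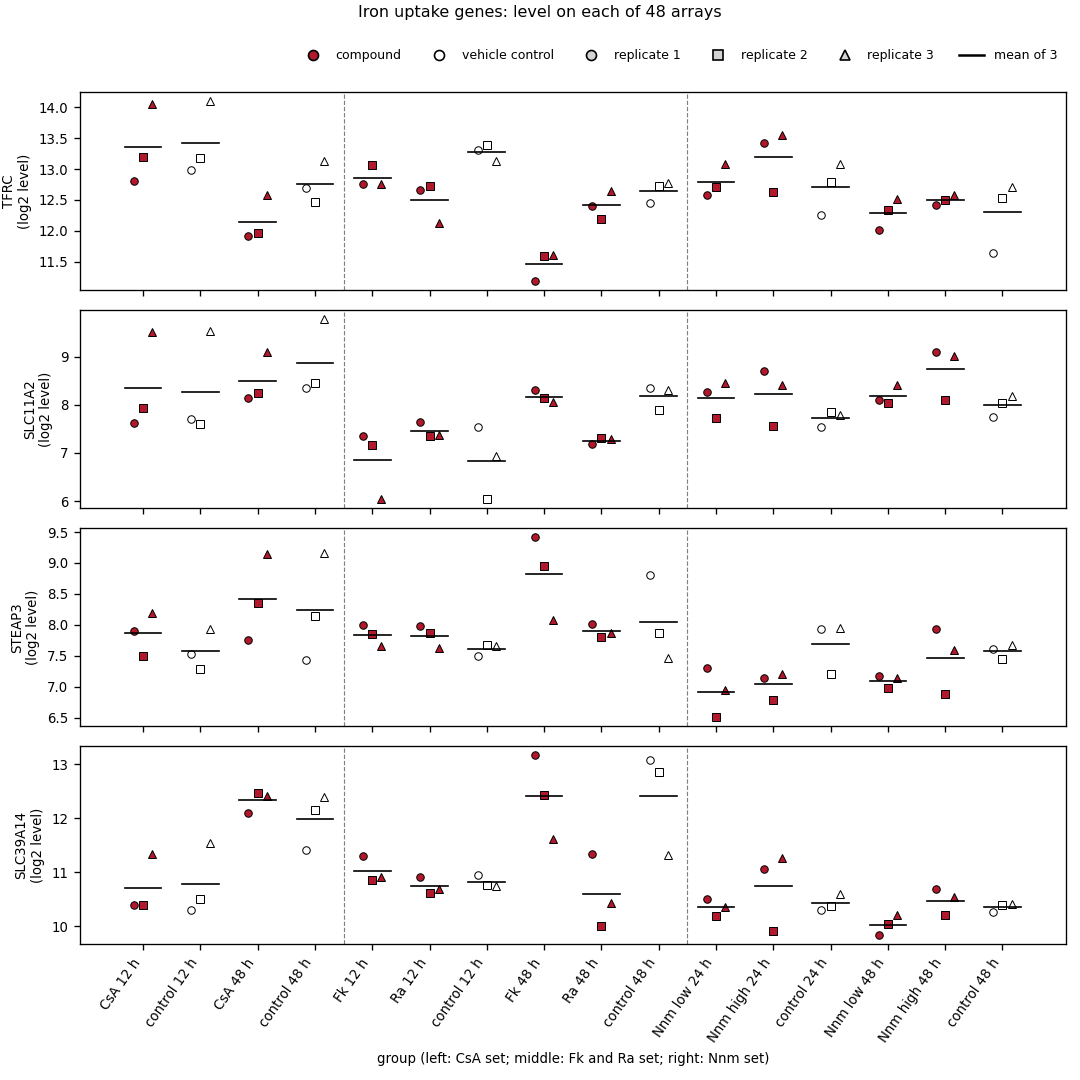
Log2 level (vertical axes) of the uptake genes TFRC, SLC11A2, STEAP3 and SLC39A14 on each of 48 arrays, by group (horizontal axis); filled points are compound groups, open points vehicle controls, shapes the replicate number, and bars the mean of 3 arrays. TFRC is lowest with Fk at 48 h (mean 11.5), and SLC39A14 stands near 12 to 12.4 at 48 h in the CsA set and in the Fk and control groups of the middle set, against 10.6 with Ra.

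SLC39A14, or ZIP14, a zinc transporter that also imports iron not bound to transferrin (on chromosome 8), gave the largest differences among the members called. After 48 h of Ra its levels were 11.35, 10.00 and 10.42, against 13.08, 12.86 and 11.32 in the controls. Control replicate 3 lay just under Ra replicate 1, so the groups overlapped. The mean was 10.59 ± 0.69 with Ra and 12.42 ± 0.96 in the controls, a difference of -1.83 ± 0.39, or 0.281 of the control level (adjusted p = 0.0014). It was -1.54 with centred arrays (adjusted p = 0.0036) and passed in 6 of 6 fits with 1 array left out (-2.38 to -1.50). The gene's other probe set past the filter fell as well (-2.26 ± 0.56, adjusted p = 0.00633). At 12 h SLC39A14 differed by -0.07 ± 0.39 with Ra, and the test of 48 h against 12 h of Ra missed the threshold (-1.76 ± 0.55, adjusted p = 0.0595), and passed without the 4 CsA-set arrays numbered 3 (0.0411).

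Fk and CsA did not share the lower SLC39A14 at 48 h. With Fk the arrays read 13.17, 12.44 and 11.61, an interval of difference from the controls of -0.80 to 0.77. With CsA they read 12.11, 12.47 and 12.41, against 11.41, 12.15 and 12.39 in its own controls (0.35 ± 0.39). Set against Fk, Ra left SLC39A14 lower (difference -1.82 ± 0.39, adjusted p = 0.0018), and this passed in 6 of 6 fits with 1 array left out. The Ra and Fk arrays did not overlap, as for 17% of all genes in the lower direction. The effect of CsA exceeded that of Ra by 2.18 ± 0.55 (adjusted p = 0.0066), a comparison between sets with separate controls, in which 16.5% of all genes were called.

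The same gene moved with time in culture where no compound was given. In the vehicle controls of the Fk and Ra set SLC39A14 was at 13.08, 12.86 and 11.32 after 48 h and at 10.94, 10.76 and 10.74 after 12 h. These did not overlap, as for 24.1% of all genes in the higher direction. The difference of 1.61 ± 0.39 was called (adjusted p = 0.0032) and passed in 6 of 6 fits with 1 array left out. In the CsA controls it was at 11.41, 12.15 and 12.39 after 48 h and 10.29, 10.51 and 11.54 after 12 h (1.20 ± 0.39, adjusted p = 0.0331, 0.00288 with the block). Only 2 of 6 fits with 1 array left out kept that call, and it was lost without the 4 arrays numbered 3 (1.38, adjusted p = 0.065). In the Nnm controls the SLC39A14 difference between 48 h and 24 h was -0.07 ± 0.39. SLC39A14 averaged 10.59 ± 0.69 in cells given Ra for 48 h and 10.81 ± 0.11 in the 12 h controls.

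Other members also differed between control arrays of different age. Of 7 members, 1 was called in the CsA controls (13.7% of all genes, 6.12% higher), 2 in the Fk and Ra controls (19.8%, 10.1% higher) and 0 in the Nnm controls (0%; 664 genes had an unadjusted p under 0.05). The second call of the Fk and Ra controls was SLC11A2, at 8.35, 7.90 and 8.31 after 48 h against 7.54, 6.04 and 6.94 after 12 h (1.35 ± 0.45, adjusted p = 0.0304). It rested on single arrays, with 2 of 6 leave-one-out fits calling it and 0.95 (adjusted p = 0.2) without 12 h control replicate 2. The TFRC difference between older and younger controls was -0.66 in the CsA set, -0.62 in the Fk and Ra set and -0.41 in the Nnm set. None of these was called without the block. In the CsA set the block called TFRC (adjusted p = 0.0192) and a STEAP3 difference of 0.66 (0.0423). Both were lost from the blocked fit without number 3 (TFRC -0.50, adjusted p = 0.215, and STEAP3 0.38, 0.439) and without number 2 (TFRC -0.63, 0.114, and STEAP3 0.56, 0.227).

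FTL encodes the ferritin light chain (chr19:48965309-48966879), a subunit of the shell that holds stored iron. It rose with Nnm at the high dose at both times and at the low dose at 24 h. After 24 h the arrays read 15.22, 15.00 and 15.07 at the low dose and 15.16, 15.03 and 15.09 at the high dose, against 14.76, 14.66 and 14.63 in the controls. No treated array overlapped a control, as for 20% of all genes in the higher direction at the low dose and 18.8% at the high dose. The rises were 0.41 ± 0.12 at the low dose, or 1.33-fold (adjusted p = 0.0278), and 0.41 ± 0.12 at the high dose (adjusted p = 0.0133).

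After 48 h FTL read 15.17, 14.75 and 15.08 at the low dose and 15.21, 14.86 and 15.21 at the high dose, against 14.75, 14.64 and 14.78 in the controls. Replicate 2 was the lowest treated array at both doses, and at the low dose it fell within the range of the controls. The high dose was called (0.37 ± 0.12, adjusted p = 0.031) and the low dose was not (0.28 ± 0.12, adjusted p = 0.179). The second FTL probe set gave the same 3 calls and differences of 0.37 to 0.54 in the 4 comparisons. Leaving out 1 array kept the call in 1 of 6 fits at the low dose at 24 h, in 4 of 6 at the high dose at 24 h and in 1 of 6 at the high dose at 48 h. The highest adjusted p in those fits was 0.172, 0.0822 and 0.177, each without replicate 1 of the treated group. Centring the arrays moved the adjusted p to 0.0515 at the low dose at 24 h and 0.11 at the high dose at 48 h. The same FTL calls, low dose at 24 h and high dose at 48 h, were lost in a fit to the Nnm arrays alone.

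Across the other sets FTL varied less. It spanned 14.52 to 15.22 over all 48 arrays, close to the top of the table, whose highest value was 16.1, and whether signal near that end understates change was not tested. After 12 h it was at 14.94, 14.82 and 14.90 with Fk and 15.01, 14.92 and 14.94 with Ra, above controls at 14.80, 14.76 and 14.73, but neither difference passed (0.13 and 0.19). Such a lack of overlap in the higher direction held for 9.29% of all genes with Fk and 17.2% with Ra. With Ra at 48 h the FTL difference was -0.31 ± 0.12 (adjusted p = 0.0639), and -0.03 with centred arrays. A probe set annotated only to FTH1P5, a pseudogene of the ferritin heavy chain that is no member and was chosen after its values were seen, lay between 13.9 and 14.8. Signal from near-identical copies of a gene cannot be told apart there. Whether either FTL probe set also takes up signal from such copies was not tested.

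**Figure D3:**
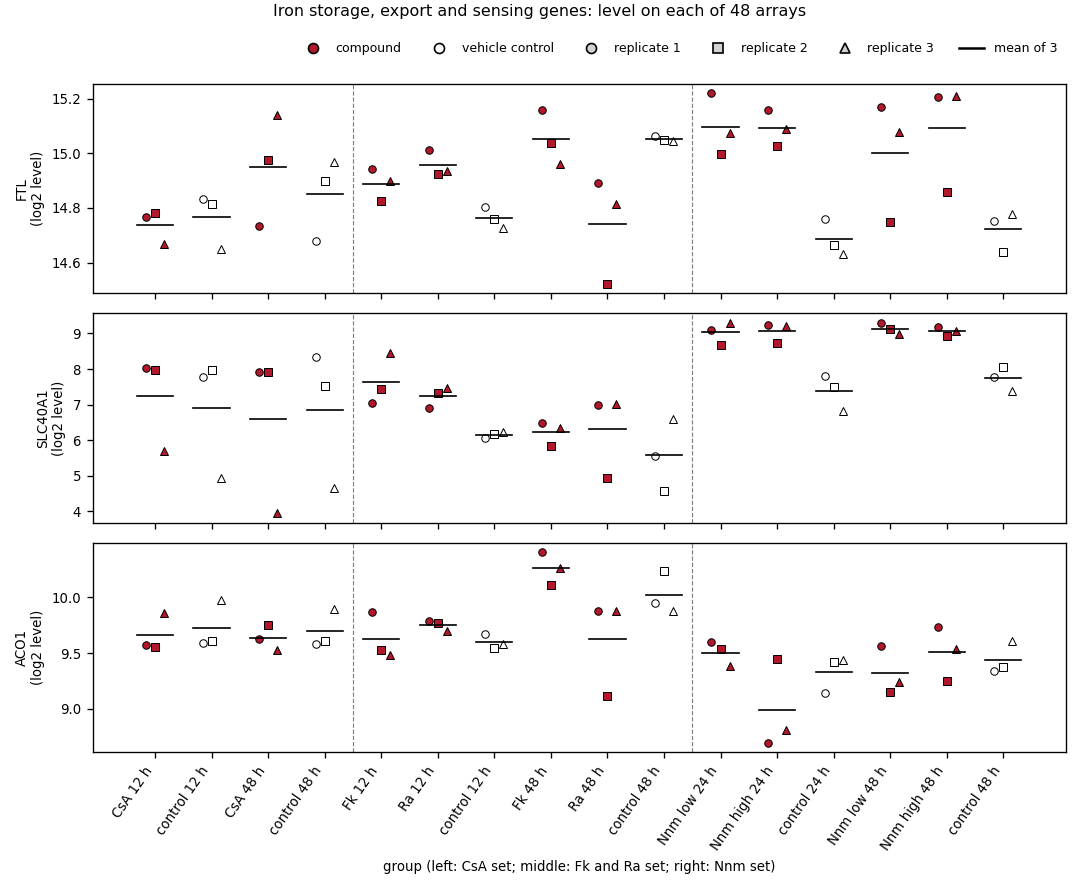
Log2 level (vertical axes) of the storage gene FTL, the exporter gene SLC40A1 and the sensor gene ACO1 on each of 48 arrays, by group (horizontal axis), drawn as for the uptake genes. SLC40A1 lies between 8.69 and 9.30 on all 12 Nnm arrays, above its controls, and the CsA-set arrays numbered 3 (triangles) stand apart at 3.95 to 5.70.

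SLC40A1 encodes ferroportin (chr2:189560590-189580786). Its levels were highest with Nnm. After 24 h they were 9.09, 8.69 and 9.30 at the low dose and 9.25, 8.72 and 9.21 at the high dose, against 7.81, 7.49 and 6.81 in the controls. After 48 h they were 9.28, 9.13 and 8.99 at the low dose and 9.18, 8.93 and 9.08 at the high dose, against 7.76, 8.05 and 7.40 in the controls. None of the 12 treated arrays overlapped the controls of its time, as for 18.8% to 20% of all genes in the higher direction.

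The size of these differences was 1.66 at the low dose and 1.69 at the high dose at 24 h, and 1.40 at the low dose and 1.33 at the high dose at 48 h. These are 3.15, 3.23, 2.63 and 2.51 times the control level. Over all 48 arrays the SE was 0.82, and none passed (adjusted p = 0.211, 0.131, 0.35 and 0.279 in that order). With the replicate number as a block the SE fell to 0.37 and all 4 passed (adjusted p = 0.00233, 0.000877, 0.0107 and 0.00763). Without the 4 CsA-set arrays numbered 3 the unblocked test called all 4 as well (0.0112, 0.00418, 0.0377 and 0.0251), and so did a fit to the Nnm arrays alone (0.00366, 0.00167, 0.00641 and 0.0046). With the block and the Nnm arrays of number 3 left out, SLC40A1 was called in none of the 4 comparisons (adjusted p 0.0711 to 0.165, differences 1.15 to 1.33). With number 1 left out instead, the 24 h calls held (0.0375 at the low dose and 0.0213 at the high dose) and the 48 h calls did not (0.187 at the low dose and 0.113 at the high dose).

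SLC40A1 also lay above its controls on every array 12 h after Fk and Ra. The arrays read 7.03, 7.45 and 8.46 with Fk and 6.91, 7.32 and 7.48 with Ra, against 6.05, 6.16 and 6.24 in the shared controls. Neither group overlapped the controls, as for 9.29% of all genes in the higher direction with Fk and 17.2% with Ra. The differences of 1.49 ± 0.82 with Fk and 1.08 ± 0.82 with Ra missed the test (adjusted p = 0.845 and 0.873, and 0.512 and 0.372 without the 4 CsA-set arrays). After 48 h the SLC40A1 arrays overlapped their controls with both compounds. In the CsA set the differences were 0.33 at 12 h and -0.24 at 48 h, both within the spread of 1.33 to 2.29 (SD) between replicates.

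ACO1, the cytosolic aconitase that becomes iron regulatory protein 1 (chr9:32384643-32454769), kept within 8.70 to 10.40 over all arrays and was called against the controls in no comparison. With Ra at 48 h it read 9.88, 9.12 and 9.88, against 10.40, 10.11 and 10.27 with Fk. No array overlapped, as for 17% of all genes in the lower direction, and the ACO1 difference of -0.63 ± 0.18 was called (adjusted p = 0.0151). It was lost with centred arrays (-0.30, adjusted p = 0.203), without Ra 48 h replicate 2 (-0.38, 0.222) and without Fk 48 h replicate 1 (-0.56, 0.099). After 24 h of Nnm at the high dose ACO1 read 8.70, 9.45 and 8.81, against 9.14, 9.42 and 9.44 in the controls (-0.35 ± 0.18, adjusted p = 0.167), and replicates 1 and 3 lay below all controls while replicate 2 did not.

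In the direct comparison of Ra with Fk at 48 h, 3 of 7 members were called, against 17.3% of all genes: TFRC higher, and SLC39A14 and ACO1 lower. Without the 4 CsA-set arrays numbered 3, SLC11A2 (-0.92, adjusted p = 0.036) and STEAP3 (-0.92, 0.0295) were called lower as well. The median of the 7 differences was -0.63, beside -0.20 over all genes, and both are moved by the scaling of the arrays. At 12 h 0 of 7 were called (0.00881% of all genes), and the TFRC difference between Ra and Fk was -0.36, with an interval from -0.96 to 0.24. The high and the low dose of Nnm differed in 0 of 7 members at 24 h (0.00881% of all genes) and 0 at 48 h (0.0176%). For FTL the interval of that difference ran from -0.25 to 0.24 at 24 h and from -0.15 to 0.33 at 48 h. For SLC40A1 it ran from -1.62 to 1.69 at 24 h, wide enough to hold differences as large as the treatment effect. No member's treatment effect differed by the test over all 48 arrays between the later and the earlier time. Without the 4 CsA-set arrays numbered 3, the effect of Ra at 48 h against 12 h was called for SLC39A14 (-1.76, adjusted p = 0.0411) and SLC11A2 (-1.55, 0.0366). Over all 48 arrays that test called 3.62% of all genes for Ra and at most 1 gene for the other compounds.

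Ordered by mean level over the 16 groups, few neighbours were further apart than the larger of their SDs. For TFRC this held for 1 of 15 steps, between CsA at 48 h (12.15) and Fk at 48 h (11.46), which ended the order. For SLC40A1 it held for 1 step, between the lowest of the 4 Nnm groups (9.03, low dose at 24 h) and the 48 h Nnm controls (7.74). For SLC39A14 there were 2 steps, the larger between the 48 h CsA controls (11.98) and Fk at 12 h (11.02). SLC11A2 had 3 such steps, ACO1 2, and FTL and STEAP3 none.

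After the mean of each set was taken off, STEAP3 and TFRC ran in opposite directions over the 16 group means (r = -0.81). FTL and SLC11A2 ran together (0.70), as did SLC39A14 and SLC11A2 (0.69). The points share arrays within a set and the passage of time, so these are descriptions. Among all genes, the closest pattern to that of SLC39A14 was that of CARS1 (0.99), then GARS1 and CCDC59, and CARS1 and GARS1 both encode aminoacyl-tRNA synthetases. TFRC was closest to FASTKD5, UPF1 and GMEB1 (0.93 to 0.90), FTL to PTP4A1, C5AR1 and MKNK2 (0.96 to 0.95), and SLC40A1 to IRF2, SHOX2 and IL1R1 (0.95 to 0.93). SLC11A2 was closest to PGAP1, IRF5 and PROC (0.94 to 0.93), STEAP3 to SLC35F6, SBF1 and TRMT112 (0.89 to 0.88), and ACO1 to PAAF1, ARMC9 and DHX32 (0.88).

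Genes of heme handling were measured beside the members, 18 of 21 listed. After 24 h of high-dose Nnm 3 of the 18 were higher and 4 lower, a share to be read against 10.5% of all genes higher and 12.5% lower, with a list median of 0.09 beside -0.01 over all genes. HMOX1, the heme oxygenase that frees iron from heme, read 10.02, 7.54 and 9.82 at the low dose and 12.04, 7.65 and 12.66 at the high dose, against 8.01, 7.88 and 8.27 in the controls. At both doses replicate 2 lay below all 3 controls while the other two lay well above them. The HMOX1 difference was 1.07 at the low dose (adjusted p = 0.385) and 2.73 ± 0.71 at the high dose (adjusted p = 0.00578), and it was lost without replicate 3 of the treated group (1.79, adjusted p = 0.107) and without replicate 1.

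BLVRB, a biliverdin reductase downstream of heme oxygenase, read 10.51, 9.41 and 10.47 at the low dose and 10.96, 9.64 and 10.55 at the high dose after 24 h, against 8.95, 9.01 and 8.71 in the controls. No array overlapped, as for 20% of all genes in the higher direction at the low dose and 18.8% at the high dose. Replicate 2 was again the lowest treated array, and both differences were called (1.24, adjusted p = 0.0194, at the low dose, and 1.49, 0.00193, at the high dose). With 1 array left out the BLVRB call held in 2 of 6 fits at the low dose and 6 of 6 at the high dose. CPOX, an enzyme of heme synthesis, was higher at the high dose (0.96), while PPOX (-1.94), UROD (-0.48), ABCB10 (-0.79) and BLVRA (-0.62) were lower. At 48 h of the high dose UROS, another synthesis enzyme, was the list's single call (-1.52 ± 0.38, adjusted p = 0.00577). Of these, CPOX, PPOX, UROD, ABCB10, BLVRA and UROS each lost the call in 2 or more of 6 fits with 1 array left out.

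**Figure D4:**
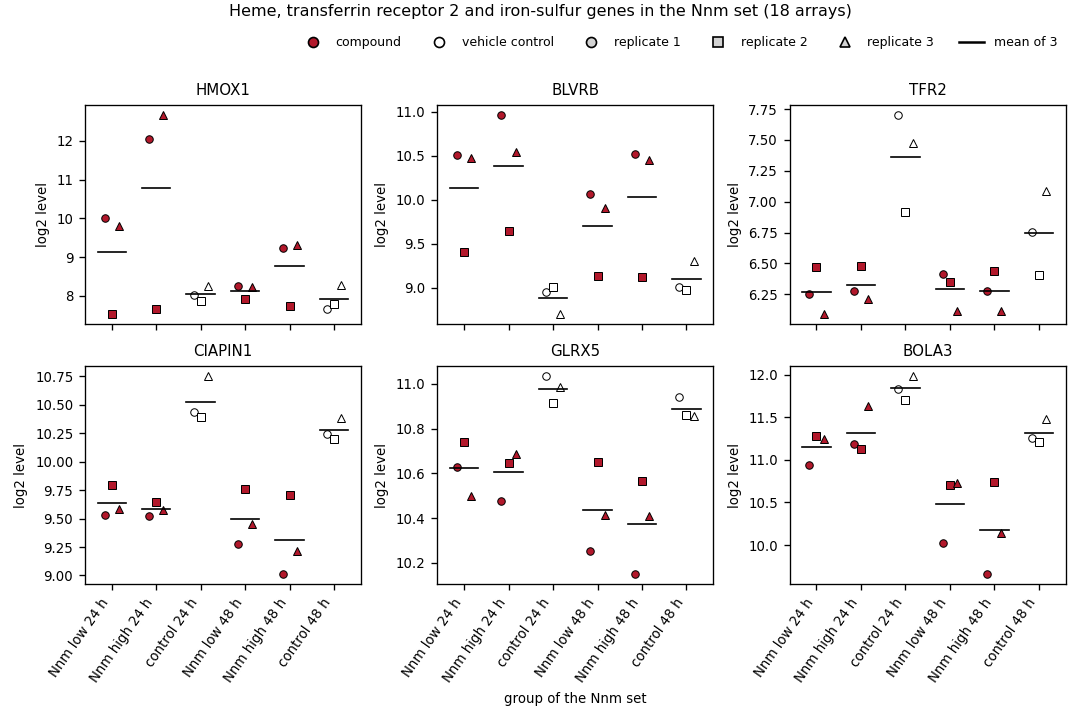
Log2 level (vertical axes) of HMOX1, BLVRB, TFR2, CIAPIN1, GLRX5 and BOLA3 on the 18 arrays of the Nnm set, by group (horizontal axis), with filled points for Nnm, open points for vehicle controls, shapes for the replicate number and bars for the mean of 3. HMOX1 and BLVRB are higher on Nnm replicates 1 and 3 than on replicate 2 (squares), and CIAPIN1 lies between 9.01 and 9.79 on all Nnm arrays, under all of its controls.

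Genes of iron-sulfur cluster assembly were lower with Nnm where they were called, 24 of 28 being measured. The called members numbered 1 at the low dose at 24 h, 3 at the low dose at 48 h, 5 at the high dose at 24 h and 4 at the high dose at 48 h, all lower. The shares of all genes called lower were 4.71%, 2.45%, 12.5% and 7.88%. CIAPIN1, which passes electrons to the cytosolic assembly machinery, was called in all 4: it averaged 9.64 ± 0.14 at the low dose and 9.58 ± 0.06 at the high dose, against 10.53 ± 0.20 in the controls at 24 h. At 48 h CIAPIN1 averaged 9.50 ± 0.24 at the low dose and 9.31 ± 0.36 at the high dose, against 10.28 ± 0.10 in the controls, and no treated array overlapped a control at either time. In the lower direction that held at 24 h for 18% of all genes at the low dose and 19.2% at the high dose. At 48 h it held for 15.3% at the low dose and 16.4% at the high dose. The high-dose differences of -0.95 at 24 h and -0.96 at 48 h passed in 6 of 6 fits with 1 array left out, the low-dose ones of CIAPIN1 in 5 of 6 at 24 h and 3 of 6 at 48 h.

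The mitochondrial assembly factors BOLA3 and GLRX5 were lower than in the controls after 48 h of Nnm. For BOLA3 the differences were -0.83 at the low dose (adjusted p = 0.0285) and -1.14 at the high dose (0.00107), and for GLRX5 -0.45 (0.0285) and -0.51 (0.00509). Of these, only the high-dose BOLA3 call passed in all 6 fits with 1 array left out. GLRX5 was also lower at the high dose at 24 h (-0.37, adjusted p = 0.029), a call that held in 2 of 6 fits. Both genes were also called lower at 48 h than at 12 h in vehicle controls. The differences were -1.08 for BOLA3 and -0.40 for GLRX5 in the CsA set, and -0.65 and -0.64 in the Fk and Ra set. BOLA1 (-1.15), NUBP1 (-0.70) and MMS19 (-0.54) were also called lower at the high dose of Nnm at 24 h. With 1 array left out these calls held in 4 of 6, 2 of 6 and 2 of 6 fits. BOLA1 averaged 3.92 ± 1.31 there, near the filter. MMS19 was also lower at the high dose at 48 h (-0.71, adjusted p = 0.0051), a call that held in 5 of 6 fits. With Ra at 48 h, 7 of the 24 were lower and 1 higher (15.6% and 2.97% of all genes). The lower ones of largest size were NUBP1 (-0.97), HSPA9 (-0.85), HSCB (-0.78) and FDX2 (-0.70), and LYRM4 was higher (0.52), a call that held in 2 of 6 fits with 1 array left out (0.35, adjusted p = 0.284, without control replicate 1). With 1 array left out the call held in 4 of 6 fits for NUBP1, 2 of 6 for HSPA9, 5 of 6 for HSCB and 3 of 6 for FDX2. Without Ra 48 h replicate 2 the calls of NUBP1 (-0.56, adjusted p = 0.163), HSPA9 (-0.65, 0.117), HSCB (-0.56, 0.0644) and FDX2 (-0.56, 0.108) were lost. With centred arrays HSCB (-0.49) and NUBP1 (-0.69) remained called while HSPA9 and FDX2 did not.

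Of the other genes of iron transport, ferritin turnover and systemic control, 17 of 27 were measured. TFR2, the second transferrin receptor, read 6.25, 6.47 and 6.09 at the low dose of Nnm and 6.28, 6.48 and 6.21 at the high dose after 24 h, against 7.70, 6.91 and 7.47 in the controls. It fell by 1.09 ± 0.25 at the low dose (difference -1.09, adjusted p = 0.00684) and by 1.04 ± 0.25 at the high dose (-1.04, 0.00343), and the call at the high dose passed in 6 of 6 fits with 1 array left out, that at the low dose in 3 of 6. PCBP1, a chaperone that delivers iron to ferritin, fell at the high dose at 24 h (-0.80 ± 0.18, adjusted p = 0.00209), as did the endocytosis gene PICALM (-0.68). CYBRD1, a surface ferrireductase, rose there (0.62), and both the CYBRD1 and the PICALM call held in 1 of 6 fits with 1 array left out. The 1 rise and 3 falls at that dose and time stand against 10.5% and 12.5% of all genes. PICALM was also lower at the low dose at 24 h (-0.76, called in 1 of 6 fits with 1 array left out). At the high dose at 48 h it was lower too (-0.93, called in 4 of 6). STEAP1, a relative of STEAP3, was higher after 48 h of high-dose Nnm (1.58 ± 0.42, adjusted p = 0.00947, a call that held in 3 of 6 fits with 1 array left out) and lower after 48 h of Ra (-1.96 ± 0.42, adjusted p = 0.0017). The Ra difference in STEAP1 passed in 6 of 6 fits with 1 array left out and remained with centred arrays (-1.67), and the gene was lower with Ra than with Fk too (-2.44). MCOLN1 was also lower with Ra at 48 h (-1.14, adjusted p = 0.0255), a call that held in 3 of 6 such fits. With centred arrays MCOLN1 was not called (-0.86, adjusted p = 0.0643).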

How the data were processed

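Per the submitters' processing notes, the authors made the deposited log2 expression values with GCRMA (version not given in the sources used here), and the 48 columns entered the fit unchanged. Probe sets above log2 4 in at least 3 arrays (20960) were kept, and each gene was represented by the one of highest mean. Limma 3.58.1 (R 4.3.3; lmFit and eBayes, statmod 1.5.0) fitted 1 mean per group over all 48 arrays, 26 contrasts were tested two-sided, and a call is a Benjamini-Hochberg adjusted p under 0.05 within a contrast over 11356 genes. The fit was run on simulated data with independent noise on each array. That run does not cover arrays paired by number or arrays that stand apart, as in these sets. The labels call the replicates biological but do not say that they came from separate cultures. The p-values therefore measure the spread between these arrays, which may be technical.

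To see whether replicate numbers pair arrays, each array's deviation from its group mean was correlated with those of the set's other groups. All 18 same-number pairs of the CsA set (0.243 to 0.926) and all 45 of the Nnm set (0.138 to 0.786) exceeded 0.1, so blocked values are given there where they change a call. In the Fk and Ra set 19 of 45 did, and its arrays were not taken as paired.

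The members and the iron, heme and iron-sulfur lists were chosen with earlier results of these data known. All members are named, and the 3 genes most like each member (Pearson r over 16 group means). Of the other lists, up to 4 called genes of largest change are named per list and direction in each comparison of treated with control cells. Called genes of these lists in the other comparisons are not all named. Alternatives were other filters, centring, quantile normalization, the mean of a gene's probe sets, each set alone, the replicate block and leaving out arrays. Leaving out the CsA set's arrays numbered 3, or 1 number from the blocked fit, was chosen after seeing the data. Sequences were taken from RefSeq (GRCh38.p14), which held no upstream entry for FTH1 and SLC39A14.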

Additional observations from a re-analysis of the deposited data

Results flagged for a closer look

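The effect of CsA on SLC39A14 at 48 h differed from that of Ra by 2.18 ± 0.55 on the log2 scale (2.176 before rounding; limma, adjusted p = 0.0066, 95% confidence interval 1.07 to 3.28). Against its own controls the gene differed by 0.35 with CsA and by -1.83 with Ra. What drew attention is that this difference of differences itself passed the test over all genes, and it passed in 12 of 12 fits with 1 array left out. The sets have separate controls, and the CsA arrays alone carry the label of a numbered laboratory. The part of the laboratory in this difference was not tested.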

How the results depend on the processing

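For the 11 member differences called, 200 refits turned no sign, and of 3342 refits of the 171 others 201 did. One of these was FTL in Ra against Fk at 48 h, which was -0.31 as deposited and 0.022 with centred arrays. Counts of members called changed as follows. With the replicate block they were 3 for Nnm low at 24 h, 1 for low at 48 h, 3 for high at 24 h, 3 for high at 48 h and 3 for the CsA controls over time. In the Fk and Ra set, whose numbers were not taken as pairs, the block gave 1 for Fk at 48 h (TFRC, adjusted p = 0.0139), 3 for Ra at 48 h, 6 for Ra against Fk at 48 h, 3 for Ra at 48 h against 12 h, 4 for its controls over time (TFRC among them, -0.62, 0.0219) and 2 for CsA against Ra at 48 h. Elsewhere the block changed no call of a member. With it, 18% of all genes were called for Nnm low at 24 h and 13% for low at 48 h. For the high dose the shares were 33.7% at 24 h and 27.4% at 48 h. They were 24.1% for the CsA controls, 0.0704% for Fk at 48 h and 28.5% for Ra at 48 h. Ra against Fk at 48 h had 27%, and Ra at 48 h against 12 h had 11.8%. The Fk and Ra controls had 29.9%, and CsA against Ra at 48 h had 26.5%. Among all genes the block moved the counts by more than 1.5 times in several comparisons, for instance to 2049 from 941 for Nnm low at 24 h and to 498 from 116 for CsA at 48 h.

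Without the CsA set's arrays numbered 3, the counts were 2 for Nnm low at 24 h, 1 for low at 48 h, 2 for high at 24 h, 2 for high at 48 h, 2 for Ra at 48 h, 5 for Ra against Fk at 48 h, 2 for Ra at 48 h against 12 h and 0 for the CsA controls. With the block and 1 number left out, counts were 0 to 2 for Nnm low at 24 h, 0 to 1 for low at 48 h, 0 to 6 for high at 24 h, 0 to 3 for high at 48 h, 0 to 1 for high against low at 24 h, 0 to 3 for the CsA controls, 2 to 4 for Ra at 48 h, 0 to 1 for Fk at 48 h, 3 to 6 for Ra against Fk at 48 h, 0 to 3 for Ra at 48 h against 12 h and 2 to 4 for the Fk and Ra controls. With 1 array left out and no block, they were 0 to 1 for Nnm low at 24 h, low at 48 h, high at 48 h and high against low at 24 h, 0 to 2 for high at 24 h, 1 to 2 for Ra at 48 h, 1 to 4 for Ra against Fk at 48 h, 0 to 2 for Ra at 48 h against 12 h, 1 to 2 for CsA against Ra at 48 h, 0 to 1 for the CsA controls and 1 to 2 for the Fk and Ra controls.

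With no filter on low values Ra at 48 h gave 2, the CsA controls 0 and the Fk and Ra controls 1. With the mean of a gene's probe sets the CsA controls gave 0 and the Fk and Ra controls 1. With centred arrays Nnm low at 24 h and high at 48 h gave 0 (10.6% and 19.5% of all genes called). Fits to 1 set alone gave 1 for Nnm low at 48 h (7.04% of all genes), 2 for high at 24 h (25.6%) and 0 for the CsA controls (12.1%). In those fits the count stayed at 1 for Nnm low at 24 h (9.33%) and high at 48 h (17.2%). The member called there was SLC40A1 and no longer FTL. For the refits with arrays left out, without the filter and with the mean of probe sets, the shares of all genes called are not given here. The counts of those refits therefore do not set the members apart from other genes. The causes of the changes in count were not tested. Among all genes with Ra at 48 h, 337 were higher and 1769 lower as deposited, against 1140 and 798 with centred arrays, and with Ra against Fk at 48 h 241 and 1721, against 1041 and 615. Signal over background limits the dimmer probe sets.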
